A study of Mus musculus with 6 samples.

Results

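Mitochondrial ribosomal proteins were taken as every gene whose symbol is Mrpl or Mrps followed by a number and at most 1 letter, leaving out names that end in -ps. The rule found 78 of the 47643 genes in the count table, 49 named for the large subunit and 29 for the small subunit. It used gene names and no measured value, but the family was chosen with earlier results of these data known. RNA of mast cells sorted from mouse skin was counted in 6 libraries, 3 embryonic and 3 adult. The embryonic mast cells came from E16.5 skin and were sorted as CD45+ F4/80- CD64- ckit+ ST2+ cells. The adult cells were sorted as CD45+ F4/80- CD64- ckit+ Fcer1+ cells, and the labels used here give no exact age. Both groups came from Cdh5CreERT2 mice, which carry a 4OHT-inducible Cre recombinase driven by the endothelial gene Cdh5, and both received 4OHT at E7.5. The submitters describe the embryonic cells as derived from yolk sac hemogenic endothelium and the adult cells as definitive. Adult skin also had its epidermis removed in a Dispase step, so age, described origin, the last sort marker and that step cannot be told apart.

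Mitochondrial ribosomes translate the mRNAs that are transcribed from mitochondrial DNA, all of which code for subunits of the oxidative phosphorylation machinery. Their rRNAs come from the mitochondrial genome, whereas their proteins are encoded in the nucleus, made in the cytosol and imported. Some of the proteins have counterparts in bacterial ribosomes and others are found in mitochondrial ribosomes without one. Mast cells reside in tissues such as skin, where their granules hold histamine and proteases.

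Libraries held between 34122162 and 49813523 counts in genes. The 12 mast cell markers summed to between 124510 and 135730 CPM, counts scaled to library size, in the embryonic libraries. In the adult ones the sum was between 62716 and 65623 CPM. Of the markers, 6 were higher in the embryonic group and 4 in the adult group. A few genes dominate the sums: Hdc and Cpa3 averaged 40045 and 38759 CPM in embryonic and 17102 and 12887 CPM in adult libraries. Fcer1a went the other way, at 5.84 against 762 CPM. The sums thus do not measure mast cell content. Markers of other cells also differed between the groups. Summed over each list, macrophage and dendritic cell markers lay between 36.7 and 59.0 CPM in the embryonic group and between 583 and 1640 CPM in the adult group, with 8 of 9 tested genes higher in adult. Erythroid markers lay at 139 to 323 CPM against 3.29 to 10.4 CPM, and Hbb-y and Hba-x were at 0 in all 3 adult libraries. Endothelial markers lay at 41.5 to 52.2 CPM against 10.5 to 16.51 CPM. Of these 7 markers, 4 were called, all higher in embryonic. Most of the sum came from Pecam1 (mean 24.0 against 3.22 CPM) and Egfl7 (16.7 against 6.64 CPM). Tek (0.444 against 0.967 CPM) and Plvap (1.71 against 1.96 CPM) lay the other way and were not called. Fibroblast markers lay at 574 to 715 CPM against 97.0 to 529 CPM, and keratinocyte markers 64.5 to 596 CPM against 37.0 to 63.4 CPM. Of 8 fibroblast markers, 0 were called higher in embryonic by edgeR (3 with DESeq2), and 1, Dcn, was called higher in adult. Of 8 keratinocyte markers, 2 were called, Krt1 and Krt10, both higher in embryonic. Embryonic replicate 3 alone held 243 and 218 CPM of these 2 genes. The part of these other cells in the results below was not tested. In bulk samples, more RNA per cell and more cells of a type cannot be told apart.

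Transcripts of mitochondrial ribosomal proteins were higher in embryonic than in adult mast cells almost throughout the family. Of the 77 members with enough counts to test, 67 were higher in embryonic cells (edgeR's quasi-likelihood test, Benjamini-Hochberg adjusted p under 0.05 over 15111 genes), 1 was higher in adult cells and 9 were not called. Of all tested genes, 63% were called: 31.2% had their higher level in the embryonic group and 31.7% in the adult group. The median log2 fold change, embryonic minus adult, was 0.99 over the 77 members, a 1.98-fold higher level, with a middle 50% from 0.57 to 1.25. The median over all tested genes was -0.02. At least 1.5-fold higher and called were 55 members, against 25.2% of all tested genes, and at least 2-fold higher were 36, against 17.2%. In 68 members every embryonic library lay above every adult library, which held for 34.5% of all tested genes.

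The summed level of all members was 2046, 1805 and 1952 CPM in the embryonic libraries and 1070, 1059 and 1072 CPM in the adult libraries. The embryonic mean was 1934 ± 122 CPM and the adult mean 1067 ± 6.87 CPM (SD, n = 3), and the groups did not overlap. The members took 0.187% to 0.211% of the counts in embryonic and 0.1002% to 0.107% in adult libraries. Between libraries of one group the median coefficient of variation of a member was 10.4% in embryonic and 9.18% in adult cells. A tested member had a median of 710.5 counts in a library.

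**Figure D1:**
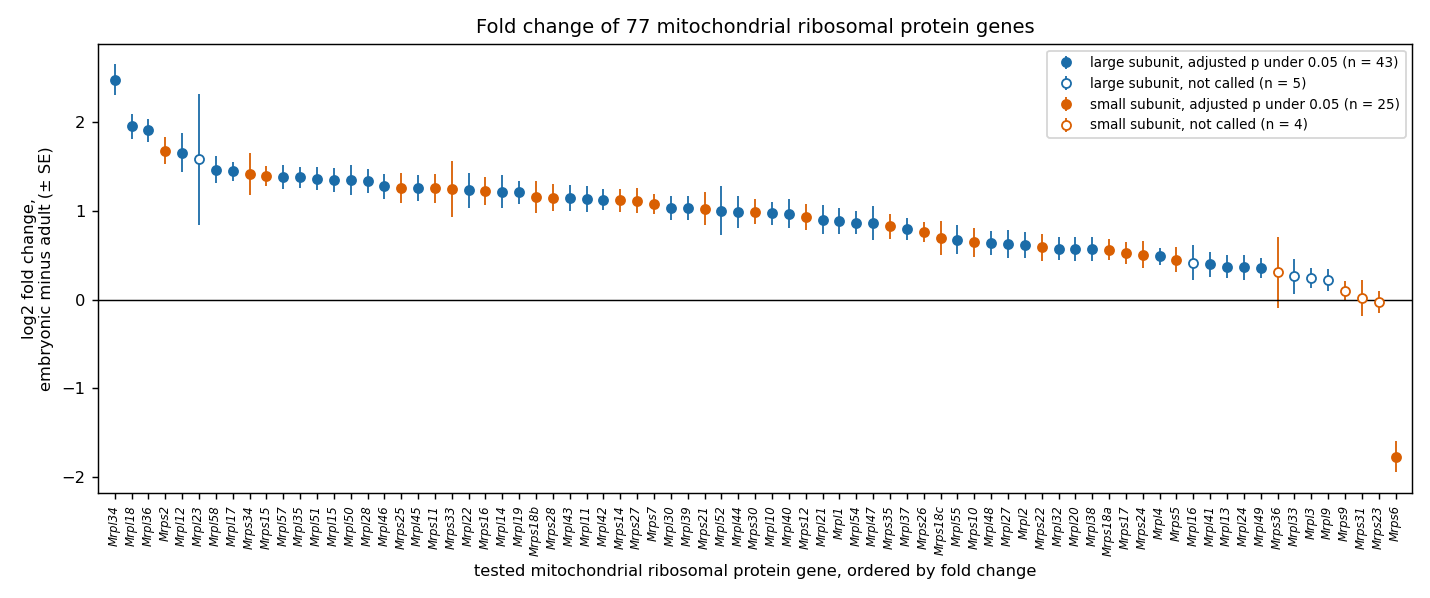
Log2 fold change (embryonic minus adult, y axis) with its standard error for each of the 77 tested mitochondrial ribosomal protein genes, ordered along the x axis. Blue points are genes named for the large and orange points genes named for the small subunit, and open points were not called. The members run from 2.48 for Mrpl34 down to -0.02 for Mrps23, with Mrps6 apart at -1.77.

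Subunits were taken from the name alone, Mrpl for large and Mrps for small, here and below. The place of each protein in the ribosome was not used for this split. Of 48 tested members named for the large subunit, which holds the peptidyl transferase centre, 43 were higher in embryonic cells and 0 were higher in adult cells. The latter count was also 0 at an unadjusted p under 0.05, with DESeq2 and with limma-voom. All 48 log2 fold changes were positive, with a median of 0.996. Of 29 members named for the small subunit, which binds the mRNA and decodes it, 24 had the higher level in embryonic cells and 1 in adult cells. The median of these 29 was 0.93. Members with a counterpart in bacterial ribosomes were higher in embryonic cells in 41 of 48 cases, with a median of 0.95. Members without one were higher in 26 of 29 tested cases, with a median of 0.99.

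The most changed member was Mrpl34, the counterpart of bacterial L34 (ENSMUSG00000034880.6, chromosome 8, 71464926 to 71465752, GRCm38). Its level was 33.6, 25.04 and 30.0 CPM in the embryonic libraries and 4.65, 5.03 and 6.24 CPM in the adult libraries. The groups lay far apart, and the log2 fold change was 2.48 ± 0.17 (SE), or 5.58-fold (adjusted p 1.4e-06, edgeR). The promoters of Mrpl34 and of 3 other members that are described further on are printed here as examples of the motif letters. They were chosen by hand, and they do not show that letters go with direction. Each is a stretch of 120 bases with no annotated exon base, 5′ to 3′ on the gene's strand, from RefSeq's promoter table (GRCm38.p6). The stretch of Mrps6 covers positions -186 to -67 from the listed start, and the others cover -120 to -1. Capitals mark matches to the motifs named after the sequences.

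Mrpl34, chr8:71464806-71464925, plus strand: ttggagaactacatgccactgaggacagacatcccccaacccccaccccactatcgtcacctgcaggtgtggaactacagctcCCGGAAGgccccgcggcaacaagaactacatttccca
Mrpl58, chr11:115403632-115403751, plus strand: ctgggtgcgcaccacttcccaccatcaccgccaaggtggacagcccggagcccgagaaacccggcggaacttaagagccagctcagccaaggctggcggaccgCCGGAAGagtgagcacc
Mrpl36, chr13:73330889-73331008, plus strand: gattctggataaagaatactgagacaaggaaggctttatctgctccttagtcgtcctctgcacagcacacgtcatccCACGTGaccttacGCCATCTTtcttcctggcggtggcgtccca
Mrps6, chr16:92058150-92058269, plus strand: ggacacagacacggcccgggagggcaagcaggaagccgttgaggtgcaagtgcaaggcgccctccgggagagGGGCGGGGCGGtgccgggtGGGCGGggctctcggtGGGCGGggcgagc

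The stretches of Mrpl34 and Mrpl58 each hold 1 match to the ETS letters CCGGAAG. That of Mrpl36 holds the E-box CACGTG and, on the other strand, the YY1 letters AAGATGGC. That of Mrps6 holds 4 matches to the Sp1 letters GGGCGG, of which 2 overlap. Over the whole window of 250 bases before to 50 bases after a start, read on both strands, 69 members had 75 windows in the table. ETS letters were in 34.7% of the member windows, in 16.1% of 13943 windows of other tested genes and in 8.86% of all 32851 windows. YY1 letters were in 16% of member windows, 4.04% of windows of other tested genes and 2.75% of all windows. NRF1 letters, GCGCATGC, were in 10.7%, 4.78% and 2.71% in the same order. E-box letters were in 9.33%, 9.55% and 7.15%, and Sp1 letters in 52.0%, 60.2% and 35.7%. Median GC content was 58.7% in member windows and 60.3% in those of other tested genes. A match is a run of letters and no measured binding. The median log2 fold change of members with and without a match was 1.02 and 0.97 for ETS, 1.01 and 0.99 for YY1, 1.0 and 0.99 for NRF1, 0.95 and 0.996 for Sp1, and 0.70 and 1.004 for the E-box, the widest gap, with 5 members holding a match. These differences were not tested.

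Mrpl18, which belongs to the central protuberance of the large subunit, was at 43.0, 35.4 and 32.9 CPM in embryonic and at 10.1, 10.0 and 8.58 CPM in adult libraries, which is 3.87-fold apart. Mrpl36, counterpart of a very small bacterial large subunit protein, was at 43.4, 35.0 and 38.8 CPM against 11.1, 10.0 and 10.1 CPM, which is 3.76-fold (adjusted p 1.1e-06, edgeR). Neither gene had an adult library near the embryonic range. Mrpl18 shares 10.1% of its exon bases with Tcp1, and Mrpl36 shares none. Other proteins of the central protuberance changed less: the log2 fold change was 1.28 for Mrpl46, 0.97 for Mrpl40, 0.64 for Mrpl48, 0.63 for Mrpl27 and 0.57 for Mrpl38, all of them called.

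Mrpl12 forms the stalk that recruits translation factors to the ribosome. It was at 34.4, 25.01 and 32.5 CPM in embryonic and at 12.8, 8.86 and 7.37 CPM in adult libraries. The difference was 3.16-fold (log2 1.66 ± 0.22 SE, adjusted p 0.00012, edgeR). Adult replicate 1 was the highest of the adult libraries and still under all embryonic ones. Mrpl10 and Mrpl11, at the base of the stalk, had log2 fold changes of 0.97 and 1.14 and were called too.

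Mrpl58 is a peptidyl-tRNA hydrolase that releases chains from stalled mitochondrial ribosomes and is also a ribosomal protein. Its level was 20.6, 18.2 and 19.4 CPM in embryonic and 6.05, 7.52 and 7.4998 CPM in adult libraries, a fold of 2.76 in favour of embryonic cells. Mrpl17 had the highest CPM of the 8 members with the largest called folds in the embryonic direction, at 80.7, 75.2 and 70.0 in embryonic and 27.6, 29.1 and 26.3 in adult libraries (2.72-fold, adjusted p 1.7e-06, edgeR). Both genes varied little within a group beside the distance between the groups.

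Proteins around the exit tunnel, through which the new chain leaves, differed in size of change. The log2 fold change was 1.26 for Mrpl45, which holds the ribosome at the inner membrane, 1.23 for Mrpl22, 0.86 for Mrpl47 and 0.36 for Mrpl24. Mrpl24 was the called member closest to the threshold (adjusted p 0.047, edgeR), and its call was lost with limma-voom, upper quartile scaling and several other settings. Mrpl23 was the least abundant tested member, with 22, 17 and 49 counts in embryonic and 18, 11 and 1 counts in adult libraries. Its log2 fold change of 1.58 ± 0.74 (SE) was not called (adjusted p 0.086, edgeR). It was 2.18 without adult replicate 1 and 0.62 without embryonic replicate 3 and adult replicate 3.

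**Figure D2:**
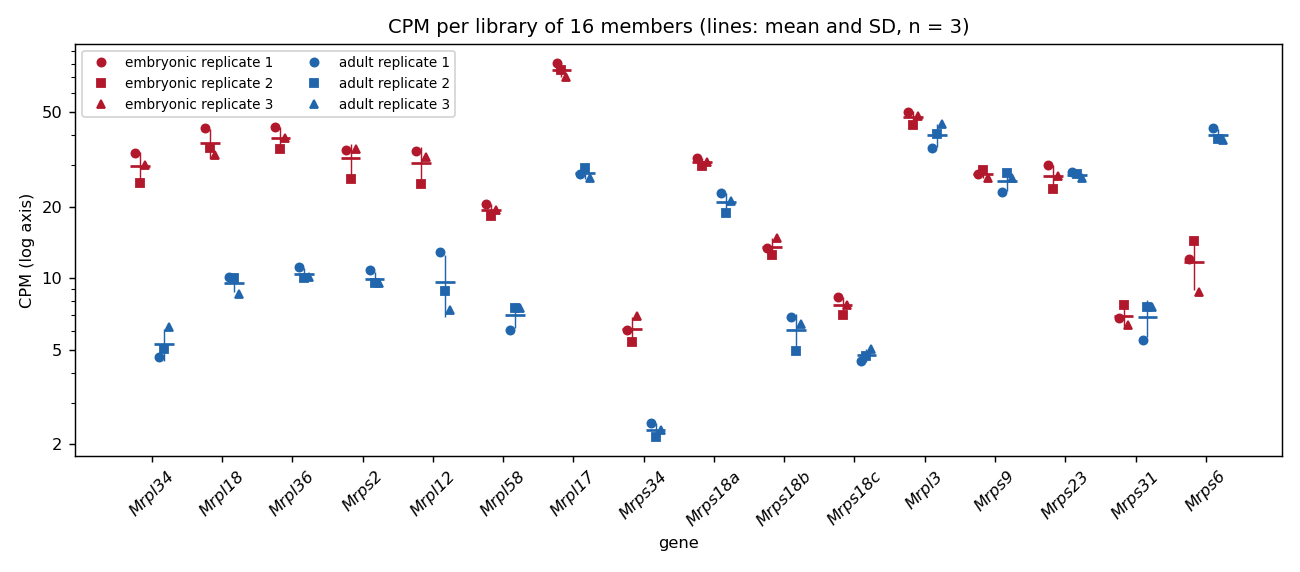
CPM per library (log axis) of 16 members, with embryonic libraries in red and adult libraries in blue, and lines for the mean and SD of 3 libraries. The 8 genes on the left and the 3 Mrps18 paralogs have every embryonic library above every adult one, Mrpl3, Mrps9, Mrps23 and Mrps31 overlap, and Mrps6 is higher in every adult library.

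Among small subunit members with the higher level in embryonic cells, Mrps2 had the largest fold, at 34.6, 26.2 and 34.9 CPM in embryonic and 10.8, 9.58 and 9.53 CPM in adult libraries, which put the embryonic mean 3.20-fold above the adult one. Mrps34, which has no bacterial counterpart, was at 6.08, 5.41 and 6.93 CPM against 2.45, 2.15 and 2.29 CPM, or 2.67-fold. It shares 77.8% of its exon bases with Mapk8ip3 and Nme3, so its counts rest on a small remainder. Mrps12, at the decoding centre, had a log2 fold change of 0.93, and Mrps5, at the mRNA entrance, one of 0.45. Mrps11 and its neighbour Mrpl46, which share 173 exon bases, had 1.25 and 1.28.

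Mrps18a, Mrps18b and Mrps18c are paralogs that descend from 1 bacterial protein, S18. Mrps18a was at 32.0, 29.7 and 30.8 CPM in embryonic and 22.7, 18.7 and 21.1 CPM in adult libraries, a fold of 1.48. Mrps18b was at 13.4, 12.6 and 14.8 CPM against 6.86, 4.94 and 6.42 CPM, a fold of 2.23. Mrps18c was at 8.33, 6.997 and 7.74 CPM against 4.49, 4.71 and 5.05 CPM, a fold of 1.62. All 3 were called and none of them overlapped between the groups. Mrps18b and Mrps18c share 30.5% and 23.2% of their exon bases with 1 other gene each. Whether their fold changes differ from each other was not tested.

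Mrps6 was the exception. It was at 12.1, 14.3 and 8.76 CPM in the embryonic libraries and at 42.9, 38.7 and 38.2 CPM in the adult libraries. The groups did not overlap, and the log2 fold change was -1.77 ± 0.17 (SE), 3.42-fold higher in adult cells (adjusted p 1.4e-05, edgeR). Mrps6 is the counterpart of bacterial S6 in the small subunit (ENSMUSG00000039680.9, chromosome 16, 92058270 to 92112227, plus strand). Its first exon is shared over 159 bases, 15.1% of its exon bases, with Slc5a3, the gene of a myo-inositol transporter that starts on the same strand 52 bases further on. The large second exon of Slc5a3 lies inside the first intron of Mrps6. Slc5a3, looked up after the values of Mrps6 were seen, was at 6.87, 12.2 and 6.36 CPM in embryonic and 85.0, 78.4 and 70.1 CPM in adult libraries. It was 9.22-fold higher in adult cells (log2 -3.20 ± 0.25 SE, adjusted p 8.5e-06, edgeR). Reads that overlap both genes were not counted for either. Whether transcripts from the shared start account for both changes was not tested.

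**Figure D3:**
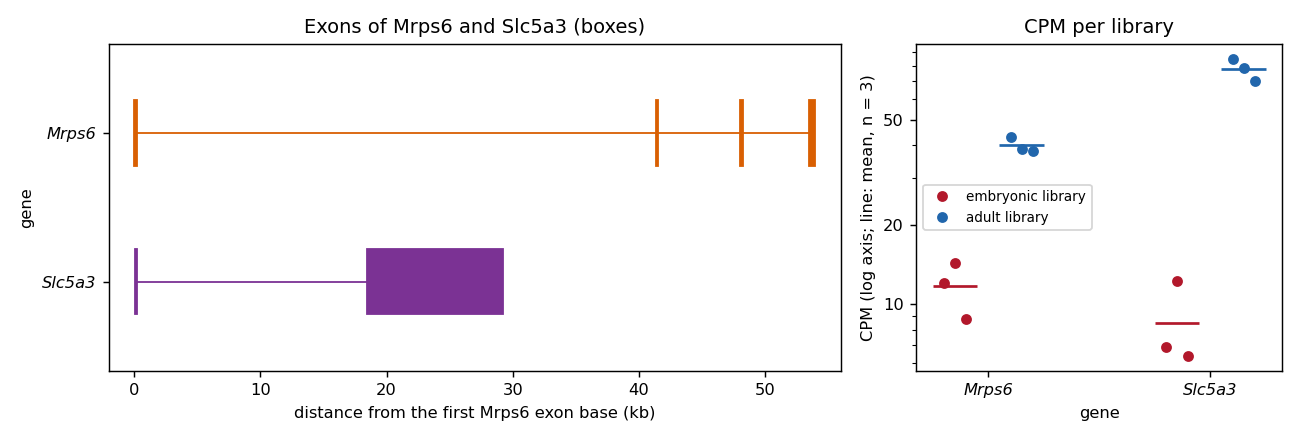
Left, exons (boxes) of Mrps6 and Slc5a3 by distance in kb from the first Mrps6 base; the second Slc5a3 exon lies in the first Mrps6 intron. Right, CPM per library (log axis) with group means, where both genes are higher in all 3 adult libraries, by 3.42-fold for Mrps6 and 9.22-fold for Slc5a3.

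The balance of members named for the 2 subunits was compared within each library. It rests on gene names, and the balance of the subunits by their actual proteins was not tested. The summed CPM of large subunit members divided by that of small subunit members was 2.20, 2.13 and 2.13 in embryonic and 1.75, 1.83 and 1.84 in adult libraries. Without Mrps6 the ratio was 2.16 to 2.25 in embryonic and 1.97 to 2.05 in adult libraries, so the difference in means fell from 0.34 to 0.17 and the groups still did not overlap. An exact two-sided permutation test gave p = 0.1 for both ratios, the smallest value that 3 against 3 libraries allow.

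The 9 members that were not called belonged to both subunits. Mrps23 was at 29.9, 23.7 and 27.0 CPM in embryonic and 28.1, 27.5 and 26.3 CPM in adult libraries, with a log2 fold change of -0.02 ± 0.12 (SE). Mrps31 was at 6.79, 7.73 and 6.36 CPM against 5.49, 7.57 and 7.55 CPM, with 0.02 ± 0.20, and Mrps9 at 27.5, 28.7 and 26.4 CPM against 23.0, 27.7 and 26.4 CPM, with 0.10 ± 0.12. These 3 small subunit genes had overlapping groups, and for Mrps23 and Mrps9 the standard errors were no larger than the median of 0.14 over all members. Mrpl3, close to the peptidyl transferase centre, was at 50.2, 43.9 and 48.2 CPM against 35.4, 40.4 and 44.6 CPM, with 0.24 (adjusted p 0.094, edgeR). Mrpl9 had 0.22, Mrpl33 0.26 and Mrpl16 0.41, and each overlapped between the groups. Mrps36, now known mainly as a part of the alpha-ketoglutarate dehydrogenase complex, had 0.31 ± 0.40 at about 1.08 CPM in embryonic and 0.877 CPM in adult cells. Mrpl53 had 1, 4 and 1 counts in embryonic and 11, 0 and 3 counts in adult libraries and could not be tested. Other genes cover 88.0% of its exon bases.

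Levels between genes were compared per length, as RPKM, which is CPM divided by the exon length in kb. The median member was at 11.1 RPKM in embryonic and 5.80 RPKM in adult cells. Averaged over all 6 libraries, Mrpl28 had the highest level, at 48.2 RPKM in embryonic and 19.0 RPKM in adult cells. It was followed by Mrpl42 (43.5 and 19.9 RPKM), Mrpl54 (39.1 and 21.5), Mrpl4 (35.0 and 24.997) and Mrpl36 (43.5 and 11.6). These 5 are large subunit genes, but the order differed by group. In embryonic cells Mrpl34 was second, at 45.8 RPKM, and in adult cells Mrps6, of the small subunit, was first, at 37.9 RPKM. The lowest by the mean over all libraries were Mrpl23 (0.371 and 0.120 RPKM), Mrps36 (0.849 and 0.688) and Mrps10 (1.501 and 0.959). The level of the most abundant member in embryonic cells was 130 times that of the least abundant. Deposited exon lengths join the exons of all isoforms, which lowers the RPKM of genes with long listed exons.

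In CPM, Mrpl28 was at 64.8, 59.8 and 59.8 in embryonic and 29.3, 22.02 and 21.4 in adult libraries, and Mrpl4 at 47.0, 43.7 and 44.4 against 32.4, 30.4 and 33.5. Mrpl42 was at 30.3, 27.5 and 29.0 CPM against 13.4, 13.5 and 12.9 CPM, and Mrpl54 at 30.6, 30.5 and 35.7 CPM against 18.1, 15.8 and 19.3 CPM. Mrps10, low per length, was at 11.3, 11.5 and 13.6 CPM against 8.63, 7.43 and 7.18 CPM. None of these 5 overlapped between the groups, and all were called, with log2 fold changes of 1.34, 0.49, 1.13, 0.87 and 0.65 in that order.

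The order of the members was much alike in the 2 groups. Across the 77 genes, which share their libraries, exon lengths and sequence, Spearman's rho between the embryonic and the adult RPKM was 0.91. The fold change had rho 0.03 with the mean RPKM and -0.09 with exon length. Mrps6 was the member that moved most in rank: at 37.9 RPKM it had the highest level of all in adult cells, while its embryonic level of 11.1 RPKM was close to the median member. Among tested genes with fewer than 1500 exon bases, 32.05% were higher in embryonic cells and the median log2 fold change was 0.16. Of the 27 tested members of that length, 24 were higher in embryonic cells and 1 was lower, and of the 50 longer members 43 were higher. Members that share no exon base with another gene were higher in 41 of 48 cases, with a median log2 fold change of 0.99. Of the 29 tested members that share exon bases, 26 were higher and 1 was lower.

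**Figure D4:**
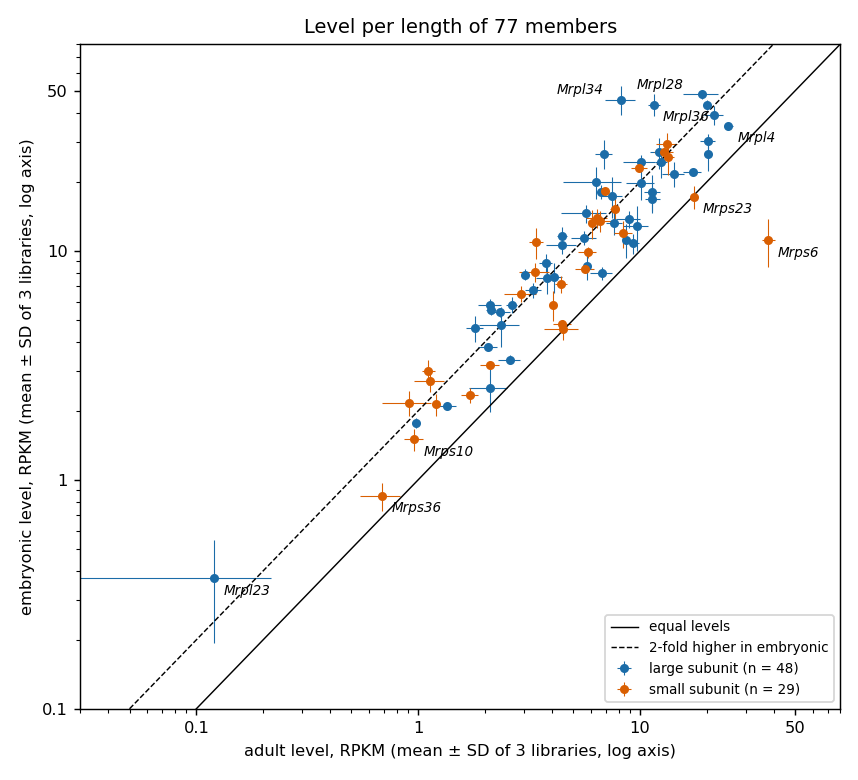
Mean level per length in embryonic (y axis) against adult cells (x axis), in RPKM on log axes with SD bars, for 77 members. Most points lie between the solid line of equal levels and a little above the dashed line of a 2-fold difference; Mrps6 lies to the right of the solid line and Mrpl34 far above the dashed one.

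The other parts of mitochondrial translation were read beside the family. Over all tested genes, 31.2% were called higher in embryonic and 31.7% in adult cells. The groups did not overlap in 70% of all tested genes, counting both directions. Genes of 5 ribosomal proteins with other names all had the higher level in embryonic cells. Their median log2 fold change was 1.14. Ptcd3, a pentatricopeptide protein of the small subunit at the mRNA entrance, was at 59.6, 58.4 and 56.2 CPM in embryonic and 13.8, 15.7 and 11.5 CPM in adult libraries, a fold of 4.25 (adjusted p 6.9e-07, edgeR). Dap3, a GTP-binding protein of the small subunit, was at 76.8, 75.3 and 72.9 CPM against 40.1, 44.03 and 44.2 CPM, a fold of 1.75. Neither gene overlapped between the groups. Chchd1, Aurkaip1 and Gadd45gip1 had log2 fold changes of 1.14, 0.43 and 1.47.

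Assembly factors were less uniform. Of 26 tested, 14 (53.8%) had the higher level in the embryonic group and 3 in the adult group. Over all tested genes these shares were 31.2% and 31.7%. Their median log2 fold change was 0.46. The RNA helicase Ddx28, which acts in large subunit assembly, was at 67.8, 54.9 and 60.3 CPM in embryonic and 13.98, 12.8 and 10.6 CPM in adult libraries, a fold of 4.90. Noa1, a GTPase, was at 27.7, 27.1 and 26.0 CPM against 11.04, 11.5 and 11.1 CPM, a fold of 2.41. The rRNA methyltransferases Mrm2 and Mrm1 were higher in adult cells. Mrm2 was at 4.64, 4.28 and 5.63 CPM in embryonic and 10.3, 7.96 and 9.53 CPM in adult libraries, and Mrm1 at 21.1, 24.3 and 24.7 CPM against 35.3, 35.3 and 28.7 CPM. Their log2 fold changes were -0.93 and -0.50, and Mterf3 was the third gene of this direction, with -0.45.

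The median log2 fold change of 17 translation factors and regulators was 0.63. Of these genes, 10 (58.8%, against 31.2% of all tested genes) were higher in the embryonic group and 0 in the adult group. The count of 0 was the same at an unadjusted p under 0.05, with DESeq2 and with limma-voom. Lrpprc, which stabilizes mitochondrial mRNAs, was at 97.0, 93.1 and 80.6 CPM in embryonic and 31.0, 36.2 and 38.4 CPM in adult libraries. Tsfm, an elongation factor, was at 29.6, 26.2 and 26.3 CPM against 11.2, 10.6 and 9.82 CPM. They were 2.56-fold and 2.59-fold higher in the embryonic group, with no overlap. Of 20 genes listed for mitochondrial tRNA charging, 14 (70%) were higher in the embryonic group and 1 in the adult group, and the median was 0.85. The list includes Gatb, Gatc and Qrsl1, which act on tRNA that is already charged. Ears2, which charges the glutamate tRNA, was at 25.9, 30.5 and 29.2 CPM against 8.63, 8.15 and 8.03 CPM (3.45-fold), and Rars2, for arginine, at 47.1, 43.8 and 45.0 CPM against 18.7, 19.4 and 21.4 CPM (2.28-fold). Mars2, for methionine, was the 1 in the other direction, at 7.30, 8.70 and 9.22 CPM in embryonic and 13.3, 11.8 and 13.1 CPM in adult libraries.

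The 20 genes of mitochondrial DNA transcription and RNA processing had a median log2 fold change of 0.60. Of these, 11 (55%, against 31.2% of all tested genes) were higher in the embryonic group. None, 0 of the 20, was higher in the adult group, also at an unadjusted p under 0.05, with DESeq2 and with limma-voom. Fastkd3, a mitochondrial RNA-binding protein, stood apart at 348, 631 and 728 CPM in embryonic and 25.2, 32.8 and 33.3 CPM in adult libraries, a fold of 18.7. Tbrg4, of the same protein family, was at 22.3, 22.9 and 22.5 CPM against 11.1, 8.42 and 8.45 CPM, 2.42-fold higher.

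**Figure D5:**
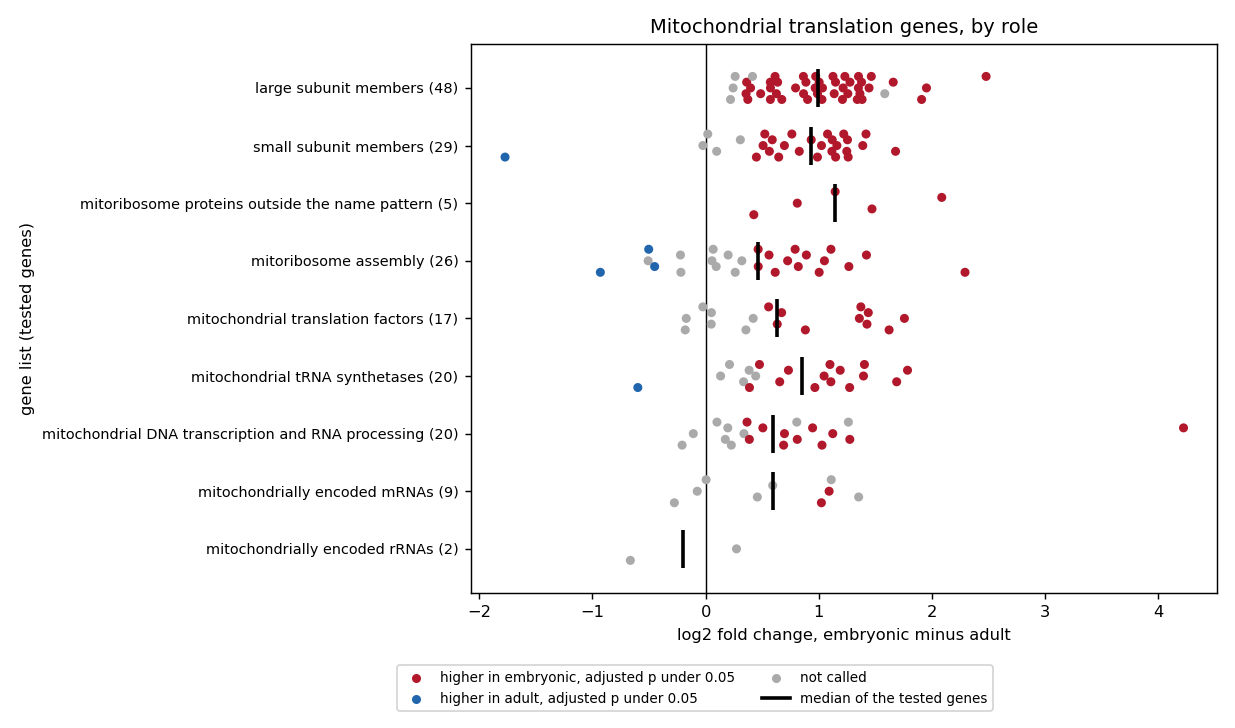
Log2 fold change (embryonic minus adult, x axis) of each tested gene named for the large or small subunit and in 7 lists of related genes, with the number tested in brackets. Red points were called higher in embryonic, blue points higher in adult cells, grey points were not called, and black bars are medians, which run from 1.14 for ribosomal proteins with other names to -0.20 for the 2 mitochondrial rRNAs.

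Transcripts of the mitochondrial genome itself did not follow the ribosomal proteins as evenly. Of its 13 mRNAs, 9 were tested and 2 of these (22.2%) were called, both higher in the embryonic group. Of all tested genes, 31.2% were called in that direction. The median log2 fold change of the 9 was 0.59. Their standard errors ran from 0.28 (mt-Co1) to 0.80 (mt-Nd3), against a median of 0.14 over the members. Calls in the 2 sets were thus made at unequal precision. The subunit genes mt-Co2, mt-Atp8, mt-Atp6 and mt-Nd4l had too few counts to test. Of the 9 tested, mt-Co3 and mt-Nd3 were also near the floor. They averaged 0.386 and 0.233 CPM in embryonic and 0.149 and 0.256 CPM in adult libraries. Reads that align to several places were not counted, and the part of this in the low counts was not tested. mt-Cytb was at 695, 506 and 1218 CPM in embryonic and 343, 377 and 416 CPM in adult libraries (log2 1.09, adjusted p 0.019, edgeR). mt-Nd6 was at 29.8, 19.6 and 43.2 CPM against 12.7, 12.5 and 20.5 CPM (log2 1.02, adjusted p 0.022, edgeR), and its groups overlapped. Embryonic replicate 3 was the highest library for both genes. With adult replicate 1 or adult replicate 2 left out, 0 of the mRNAs were called, and 5 were called without embryonic replicate 2. The rRNAs mt-Rnr1 and mt-Rnr2 had log2 fold changes of -0.67 and 0.27, and 0 were called by edgeR (1 with DESeq2 and 1 with limma-voom, both higher in adult, and 0 at an unadjusted p under 0.05). Libraries were made from poly(A) RNA, and the part of polyadenylation in these levels was not tested.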

How the data were processed

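Poly(A) RNA of 3 embryonic and 3 adult libraries of sorted skin mast cells was measured, per the labels. From 10 ng of RNA, cDNA was amplified with SMART-Seq v4 and libraries were made with Nextera XT, per the labels' protocols. The deposited table holds a whole-number read count for each gene and library. Per the file headers, the authors counted with featureCounts 1.5.0-p1 over exons of GENCODE M9, without strand (setting 0), with marked duplicates ignored, and with no option to count reads that align to several places or overlap several genes. Per the submitters' processing notes, STAR aligned the reads to GRCm38 (mm10). Without strand, a gene and an antisense partner cannot be told apart. There were no molecular identifiers, so counts are reads and not molecules.

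Symbols were matched by gene ID for 47224 of 47643 genes (419 unmatched), and 0 columns belonged to other samples. edgeR 4.0.16 in R 4.3.3 tested embryonic against adult (TMM, filterByExpr with a minimum count of 10, robust quasi-likelihood fit, Benjamini-Hochberg adjustment over 15111 genes, threshold 0.05). CPM used TMM-scaled totals, and RPKM divided CPM by the deposited exon length in kb. The test was also run on counts simulated from the means and dispersions of the real data. Far fewer genes were changed in the simulation than were called in the real data, so it cannot show how reliable the calls here are. Whether replicates are separate animals is not in the labels. The p-values then reflect only how far these libraries spread, which may be technical. Replicates of a group differed by more than counting noise.

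Members and lists were chosen with earlier results of these data known. Named genes were the 8 largest called changes in each direction, the 5 highest and 3 lowest members per length, members not called, the Mrps18 paralogs, Mrpl12, Mrpl58, Mrps36, and in each related list the 2 smallest adjusted p-values in each direction. Groupings by place in the ribosome, and the genes named in them, were made after the values were seen. Alternatives were other scalings and filters, DESeq2 1.42.0, limma-voom (limma 3.58.1), a replicate block, a fit without robust estimation, leaving out each replicate, and stricter thresholds. Leaving out replicate 3 of both groups together was chosen after seeing the data. Tmem223 matched no symbol.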

Additional observations from a re-analysis of the deposited data

How the results depend on the processing

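The 67 calls higher in embryonic cells became 67 with DESeq2 and with RLE scaling, 66 with limma-voom, 66 with upper quartile scaling, 69 without a scaling factor, 66 among genes with at least 1 CPM in 3 libraries, 68 among genes with at least 1 count and 61 at an adjusted p under 0.01. They were 63 to 67 when 1 library was left out, and 63 without embryonic replicate 3 and adult replicate 3, where Mrpl24, Mrpl41, Mrpl49 and Mrps24 were lost. The median log2 fold change of the members was 0.93 to 1.13 when 1 library was left out, highest without embryonic replicate 2. Mrps6 stayed higher in adult cells and called in all 17 of its alternatives. Replicate numbers did not pair the libraries (correlations of same-numbered libraries -0.12, -0.08 and -0.13); with the replicate block 65 members were called, Mrpl24 and Mrpl41 being lost, 4 mitochondrially encoded mRNAs were higher in embryonic cells and 1 mitochondrial rRNA was higher in adult cells.

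The mitochondrial rRNAs gave 1 call higher in adult cells with DESeq2, with limma-voom, without robust estimation, among genes with at least 1 count, and without embryonic replicate 3 and adult replicate 3; the last 2 settings also gave 1 call higher in embryonic cells. Leaving out 1 library gave 0 to 1 calls in each direction. For mitochondrially encoded mRNAs this range was 0 to 5, and 0 were called at an adjusted p under 0.01. At a fold of at least 1.5, 1 assembly factor was higher in adult cells. Single genes reversed only near 0: Mrps31 was at -0.002625 among genes with at least 1 CPM in 3 libraries, -0.13 without adult replicate 1 and -0.01157 without embryonic replicate 2 (0.15 at most, without embryonic replicate 3 and adult replicate 3), and Mrps23 was at 0.024 among genes with at least 1 count, 0.062 without a scaling factor, 0.11 without embryonic replicate 2 and 0.022 without embryonic replicate 3 (lowest -0.087, without embryonic replicate 1). The cause of these moves was not tested. Over 41 named genes, 678 alternative values kept direction and side of the threshold, 7 reversed, 7 lost and 4 gained a call. Few counts limit what can be said of Mrpl23, Mrps36 and Mrpl53.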
